A study of Saccharomyces cerevisiae with 4 samples.

Results

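The 10 genes described here encode proteins that form the 3′ ends of mRNAs and stop RNA polymerase II in yeast, and they were chosen by name: PCF11, NRD1, NAB3, SEN1, RTT103, RNA14, RNA15, CLP1, YSH1 and CFT1. Each has 1 probe among the 6210 of the table, and all 10 were measured on all 4 arrays. Each array compared labelled cDNA of 1 RNA replicate of the 5A mutant with 1 of the control cells. In the 5A mutant, 5 alanines separate the paired heptapeptides of the polymerase CTD, the repeat-rich tail that ends its largest subunit, and the control cells carry WT CTD heptapeptides. Both strains were made by the plasmid shuffle, in strain Z26 according to the methods, so the mutant's CTD gene sat on a LEU2-linked plasmid, and both were grown in YPD to log phase. The 5A mutant was labelled with Cy5 and the control with Cy3 on all 4 arrays, so the ratio of a probe and any bias of that probe towards 1 dye cannot be told apart. Whether the replicates were separate cultures is not given in the sources used here, and the p-values then measure only the spread between arrays. In RNA from a whole culture, a change in the mix of cells and a change per cell cannot be told apart.

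In yeast, most mRNA 3′ ends are made by a large machine. Cleavage factor IA (Rna14, Rna15, Pcf11 and Clp1) and cleavage factor IB (Hrp1) recognise the RNA, and the cleavage and polyadenylation factor, CPF, cuts it through its endonuclease Ysh1 and adds the poly(A) tail. Once the RNA has been cut, the exonuclease Rat1 degrades the piece still attached to the polymerase, and Rtt103 links that enzyme to the CTD. A separate path, through the RNA-binding proteins Nrd1 and Nab3 and the helicase Sen1, ends short non-coding transcripts such as the small nucleolar RNAs (snoRNAs) and passes them to the nuclear exosome. Pcf11, Nrd1 and Rtt103 each hold a CTD-interacting domain, which reads the phosphorylated CTD. The comparison asks whether the mRNAs of this machinery, and of genes that depend on it, differed between cells with the altered and the normal CTD.

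The table holds the authors' normalized log2 ratio of the 5A mutant over the control, with between 6022 and 6177 values on an array. Ratios on array 2 were the least spread, with a standard deviation over probes of 0.74 against 0.86 to 0.97, and array 2 correlated least with the others across probes (r between 0.67 and 0.69, against 0.85 to 0.88). Probes of chromosome XI had a median log2 ratio of 0.89, and none of the 10 genes lies there. RPO21, whose product carries the CTD, was at -5.67 ± 0.75 (SD over 4 arrays, limma adjusted p = 6.11e-05), but the gene was carried on plasmids and the position of its probe is not known, so the value does not check the labels. A gene was called where its adjusted p was under 0.05 in a limma fit over the 6157 probes that had values on 2 or more arrays, and a log2 ratio of 1 is a 2-fold difference.

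Expression of 3 of the 10 genes differed between the strains. RNA14 and CFT1 were lower in the 5A mutant and NRD1 was higher, each by more than 2-fold on average, whereas PCF11, NAB3, SEN1, RTT103, RNA15, CLP1 and YSH1 were not called. Calls were common in this table: 40.5% of all probes were called, 19.8% as higher and 20.7% as lower, and 14.2% were both called and at 2-fold or more. The 3 calls make 30.0% of the 10 genes, a smaller share than the 40.5% of the table, and since all 3 were past 2-fold, the same 30.0% stands against the 14.2%. The median of the 10 mean log2 ratios was 0.14, and that of all probes tested was -0.01.

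**Figure D1:**
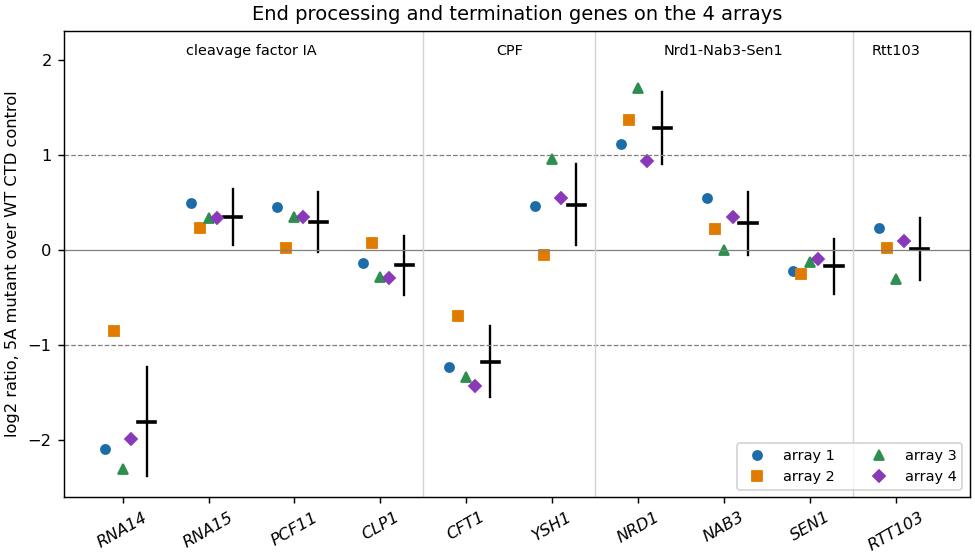
Log2 ratio of the 5A mutant over the WT CTD control (y axis) for the 10 genes, grouped by complex. Coloured symbols are the 4 arrays, horizontal bars the means and vertical bars the 95% intervals of the limma fit, and dashed lines mark 2-fold. RNA14 and CFT1 lie below 0 and NRD1 above 0 on every array.

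Within cleavage factor IA, RNA14 was the only gene called. RNA14 (YMR061W), which encodes the scaffold protein that holds Rna15, had log2 ratios of -2.09, -0.85, -2.31 and -1.99 on arrays 1 to 4. All 4 arrays were below 0, and array 2 was the closest to it. The mean was -1.81 ± 0.65 (SD over 4 arrays, limma adjusted p = 0.00202), with a 95% interval from -2.38 to -1.24, so that the control had 3.50-fold more of this mRNA. Only 2.16% of the tested probes had a mean this low or lower. The mean lay between -2.13 and -1.64 with 1 array left out, and RNA14 was called each time (limma adjusted p between 0.000140 and 0.0146). In a one-sample test without limma's sharing of variances between probes, RNA14 had an adjusted p of 0.0578, which is not a call.

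RNA15 (YGL044C), the partner of Rna14 that binds the RNA, had log2 ratios of 0.49, 0.23, 0.34 and 0.34. The 4 arrays agreed closely and were all above 0, with a mean of 0.35 ± 0.11 (SD over 4 arrays, limma adjusted p = 0.0614). RNA15 was therefore just short of the threshold, and its 95% interval ran from 0.05 to 0.64. It was called without array 2 (mean 0.39, limma adjusted p = 0.0372), with arrays weighted by their quality (limma adjusted p = 0.0209) and relative to the median of its chromosome (0.41, limma adjusted p = 0.0398). It was not called relative to the 60 nearest probes (0.28, limma adjusted p = 0.113) or without array 1, 3 or 4 (limma adjusted p between 0.151 and 0.215). The proteins of RNA14 and RNA15 form a tight pair, and the ratios of the genes were set against each other. The difference of RNA14 minus RNA15 in log2 ratio was -2.58, -1.08, -2.64 and -2.32 on arrays 1 to 4. It was below 0 on each array, with a mean of -2.16 ± 0.73 (SD over 4 arrays), with an exact two-sided permutation p of 0.125, the smallest that 4 arrays allow.

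PCF11 (YDR228C), whose product binds the CTD and takes polymerase off the DNA, gave 0.45, 0.02, 0.35 and 0.35. All values were above 0 and array 2 was the lowest. Its mean of 0.29 ± 0.19 (SD over 4 arrays, limma adjusted p = 0.124) was not called, with a 95% interval from -0.03 to 0.61, but it was called without array 2 (mean 0.38, limma adjusted p = 0.0372). CLP1 (YOR250C), which encodes the subunit that bridges to Pcf11, gave -0.13, 0.07, -0.28 and -0.29, on both sides of 0. Its mean was -0.16 ± 0.17 (SD over 4 arrays, limma adjusted p = 0.359), with a 95% interval from -0.47 to 0.15. Hrp1, of cleavage factor IB, was encoded by an mRNA with a mean ratio near 0, -0.04 ± 0.34 (SD over 4 arrays, limma adjusted p = 0.840).

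In CPF the scaffold gene CFT1 was called and the nuclease gene YSH1 was not. CFT1 (YDR301W), which encodes the largest CPF subunit and an anchor of the poly(A) polymerase module, had log2 ratios of -1.23, -0.70, -1.34 and -1.43. As with RNA14, every array was below 0 and array 2 was nearest to it. The mean of -1.18 ± 0.33 (SD over 4 arrays, limma adjusted p = 0.00211) corresponds to 2.26-fold more of this mRNA in the control, with a 95% interval from -1.55 to -0.80 on the log2 scale. It was called in each fit with 1 array omitted, at means from -1.34 to -1.09. YSH1 (YLR277C), the gene of the endonuclease that cuts the RNA, gave 0.46, -0.06, 0.96 and 0.54. The arrays spread widely around a mean of 0.48 ± 0.42 (SD over 4 arrays, limma adjusted p = 0.0729), with a 95% interval from 0.05 to 0.90, and only array 2 was below 0. Without array 2 the mean was 0.65 and was called (limma adjusted p = 0.0115). CFT1 minus YSH1 was below 0 on each array, with a mean of -1.65 ± 0.72 on the log2 scale (SD over 4 arrays, exact two-sided permutation p = 0.125, the smallest that 4 arrays allow).

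NRD1 (YNL251C) was the gene of the non-coding path that was called. Nrd1 binds both RNA and the CTD, and in yeast it is known to terminate its own transcript early, which keeps its level in check. Its log2 ratios were 1.12, 1.36, 1.70 and 0.93, all well above 0, and array 2 was not the lowest. The mean was 1.28 ± 0.33 (SD over 4 arrays, limma adjusted p = 0.00165), 2.43-fold more in the 5A mutant, with a 95% interval from 0.90 to 1.66. Of all tested probes, 97.1% had a mean this high or lower. Leaving out any 1 array gave means from 1.14 to 1.39, each of them called.

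The partners of NRD1 gave smaller ratios. NAB3 (YPL190C), whose product forms a dimer with Nrd1 on the RNA, had log2 ratios of 0.55, 0.22, 0.0006 and 0.34. Array 3 was at 0 and the others above it, and the mean of 0.28 ± 0.23 (SD over 4 arrays, limma adjusted p = 0.153) was not called, with a 95% interval from -0.05 to 0.61. SEN1 (YLR430W), which encodes the helicase that removes polymerase, gave -0.22, -0.25, -0.13 and -0.10. These 4 values had the smallest spread among the 10 genes, and the mean of -0.18 ± 0.07 (SD over 4 arrays, limma adjusted p = 0.282) was not called, with a 95% interval from -0.46 to 0.11. NRD1 was above NAB3 on each array by a mean of 1.001 ± 0.54 on the log2 scale (SD over 4 arrays, exact two-sided permutation p = 0.125, the smallest that 4 arrays allow). These 3 pairs were the only differences between the genes that were tested, and each set a called gene against an uncalled partner. With 4 arrays this permutation test cannot fall under 0.05, so it cannot decide whether the genes of a pair differed.

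RTT103 (YDR289C) was the closest to 0 of the 10 genes, with log2 ratios of 0.23, 0.02, -0.30 and 0.09 on either side of it. Its mean was 0.01 ± 0.22 (SD over 4 arrays, limma adjusted p = 0.961), and the 95% interval from -0.32 to 0.34 leaves out a 2-fold difference. Its enzyme partners in the torpedo path were not called: RAT1, the exonuclease gene, averaged 0.13 ± 0.37, and RAI1, the gene of its activator, -0.14 ± 0.56 (SD over 4 arrays, limma adjusted p = 0.563 and 0.625). RAI1 was at -0.97 on array 3 and between 0.06 and 0.22 on the others.

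**Figure D2:**
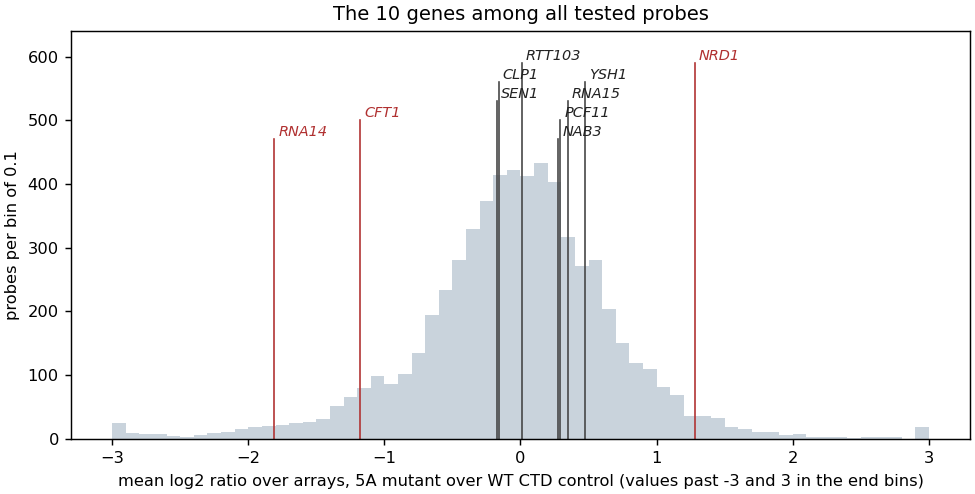
Number of probes (y axis) by mean log2 ratio in bins of 0.1 (x axis) for all 6157 tested probes, with the means of the 10 genes as vertical lines, red where called. RNA14, CFT1 and NRD1 lie in the tails, and the other 7 between -0.18 and 0.48.

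The ratios of the surrounding genes were examined because ratios in this table shifted together along some chromosome stretches. For NRD1 and RNA14 the 60 nearest probes on the chromosome had medians of 0.02 and -0.18 on average over the arrays, and their means relative to these were 1.26 and -1.63 (limma adjusted p = 0.00236 and 0.00364). CFT1 and RTT103 lie near each other on the right arm of chromosome IV, in a stretch of low ratios whose local medians were -0.33 and -0.43. Relative to its surroundings CFT1 was at -0.85 (limma adjusted p = 0.00531), still called but short of 2-fold. RTT103 relative to its surroundings was at 0.44 and was then called (limma adjusted p = 0.0401), so its ratio near 0 stood above those of its neighbours. The part of the stretch in the ratio of CFT1 was not tested.

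Of the 20 genes next to one of the 10, 18 were tested, and 1 was called as higher and 4 as lower, against 19.8% and 20.7% of all probes, so calls were not more common among them than in the table. Both neighbours of CFT1 were lower: PRO1, a proline biosynthesis gene transcribed away from it, at -0.90 ± 0.25, and GPI11, a glycolipid anchor gene downstream on the same strand, at -1.07 ± 0.45 (SD over 4 arrays, limma adjusted p = 0.00373 and 0.00524). ARG7, an arginine biosynthesis gene that faces the 3′ end of RNA14, was at -0.74 ± 0.27 (SD over 4 arrays, limma adjusted p = 0.00852). RAD50, a DNA repair gene that diverges from NRD1, was at 0.68 ± 0.29 (SD over 4 arrays, limma adjusted p = 0.0126), and YLR278C, next to YSH1, at -0.82 ± 0.50 (SD over 4 arrays, limma adjusted p = 0.0176). Both lost their calls without array 1 or array 4, and YLR278C also without array 3. RNA14 and NRD1 lay farther from 0 than the genes on either side of them, while CFT1 and GPI11 lay within their spread of each other.

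**Figure D3:**
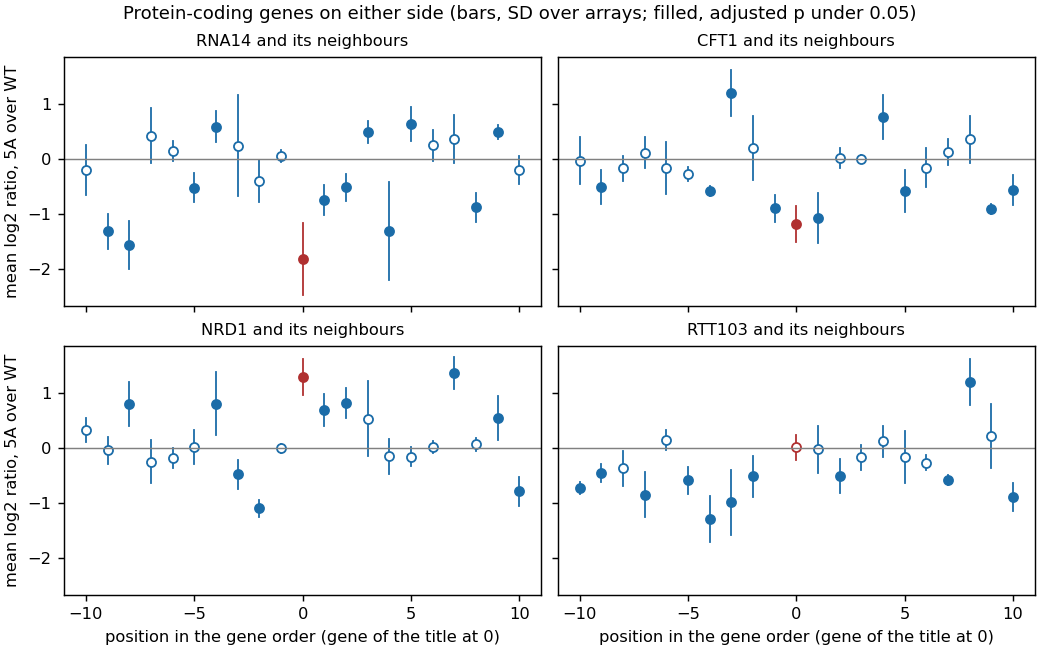
Mean log2 ratio with SD over arrays (y axis) of RNA14, CFT1, NRD1 and RTT103 (red, position 0) and of up to 10 protein-coding genes on each side in the gene order (blue, x axis). Filled points have an adjusted p under 0.05. The genes directly beside CFT1 are low, and the wider surroundings of CFT1, NRD1 and RNA14 hold genes on both sides of 0, with medians of -0.16, 0.01 and -0.07.

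The partners of the 10 genes were divided in their ratios. Of 48 other genes of end processing, nuclear RNA decay, capping and Nrd1-dependent early termination, 13 were called as higher and 8 as lower, 43.8% in all against 40.5% of all probes. The remaining 13 CPF subunits gave 7 higher and 3 lower, with a median of 0.46. The share called among them was 76.9%, against 40.5% of all probes. SWD2, which encodes a subunit shared with a histone methylase, was at 1.41 ± 0.40, PTI1 at 0.87 ± 0.47 and REF2, of the same CPF module as PTI1, at 0.84 ± 0.45 (SD over 4 arrays, limma adjusted p = 0.00162, 0.0123 and 0.0126). REF2 was at 1.51 on array 1 and between 0.55 and 0.69 on the others. MPE1, of the nuclease module, averaged 0.73 ± 0.41 (SD over 4 arrays, limma adjusted p = 0.0173) and lost its call without array 1 or array 4. The 3 lower subunit genes were SYC1, which encodes a small relative of Ysh1, at -0.75 ± 0.14 (SD over 4 arrays, limma adjusted p = 0.00466), the scaffold gene PFS2 at -0.61 and the phosphatase gene GLC7 at -0.51 (limma adjusted p = 0.0254 and 0.0364). PFS2 and GLC7 were not called relative to the 60 nearest probes (limma adjusted p = 0.0884 and 0.0698), and with an array left out their adjusted p reached 0.108 and 0.161 in limma.

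SWD2, MPE1 and the poly(A) polymerase gene PAP1, 3 of the 7 higher subunits, lie on chromosome XI. Set against the median of the chromosome, SWD2 was at 0.53 and MPE1 at -0.16, and neither was called (limma adjusted p = 0.0561 and 0.509). PAP1 turned from 0.46, called as higher, to -0.43, called as lower (limma adjusted p = 0.0398 and 0.0480). With every chromosome set against its own median, 4 of the 13 were higher and 3 lower, and the median of the 13 was 0.04. The 3 lower were SYC1, PFS2 and PAP1, and the 4 higher were PTI1, REF2, SSU72 and PTA1. In the main fit SSU72 was at 0.60 ± 0.14 and PTA1 at 0.49 ± 0.19 (SD over 4 arrays, limma adjusted p = 0.0104 and 0.0253). Relative to their chromosomes they were at 0.64 and 0.65. With an array left out of the main fit, their adjusted p reached 0.0596 and 0.119 in limma. Without array 1 or array 4, 3 of the 13 were higher and 1 lower in the main fit. PAN3, another gene of chromosome XI and the regulatory subunit of a poly(A) tail-shortening enzyme, was at 1.46 ± 0.19 (SD over 4 arrays, limma adjusted p = 0.000604) and at 0.58 relative to the chromosome's median (limma adjusted p = 0.0162). It was the 1 of 4 poly(A) tail genes that was called, 25.0% against 40.5% of all probes.

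The nuclear exosome and its TRAMP cofactor, which degrade and trim the RNAs released through Nrd1, gave 4 higher, 2 lower and 12 uncalled genes of 18, with a median of 0.11. The share called was 33.3%, below the 40.5% of all probes. RRP6, the gene of the nuclear exonuclease of the exosome, was the lowest of them, with -1.02, -0.83, -1.34 and -1.10 on the 4 arrays. Its mean of -1.07 ± 0.21 (SD over 4 arrays, limma adjusted p = 0.00177) passed 2-fold, and it was called whichever array was left out. The other lower gene was RRP45, of the exosome core, at -0.46 (limma adjusted p = 0.0287), which lies in the low stretch beside RTT103 and was at -0.10 relative to the 60 nearest probes (limma adjusted p = 0.533). The core subunit genes RRP40 and RRP42 were at 0.65 ± 0.19 and 0.58 ± 0.26, and the TRAMP genes AIR2 and PAP2 at 0.57 ± 0.22 and 0.47 ± 0.18 (SD over 4 arrays, limma adjusted p between 0.00976 and 0.0295). RRP42 was at 0.19 on array 2 and between 0.68 and 0.75 on the others, and RRP42, AIR2 and PAP2 lost their calls without array 1, 3 or 4. Without array 1, 3 or 4 the exosome list gave 1 higher and 1 lower gene. At the other end of the mRNA, 1 of 5 capping and cap-binding genes was called, 20.0% against 40.5% of all probes. It was CET1, the RNA triphosphatase gene, at 0.45 ± 0.21 (SD over 4 arrays, limma adjusted p = 0.0370), and its call was lost when array 1, 3 or 4 was left out.

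**Figure D4:**
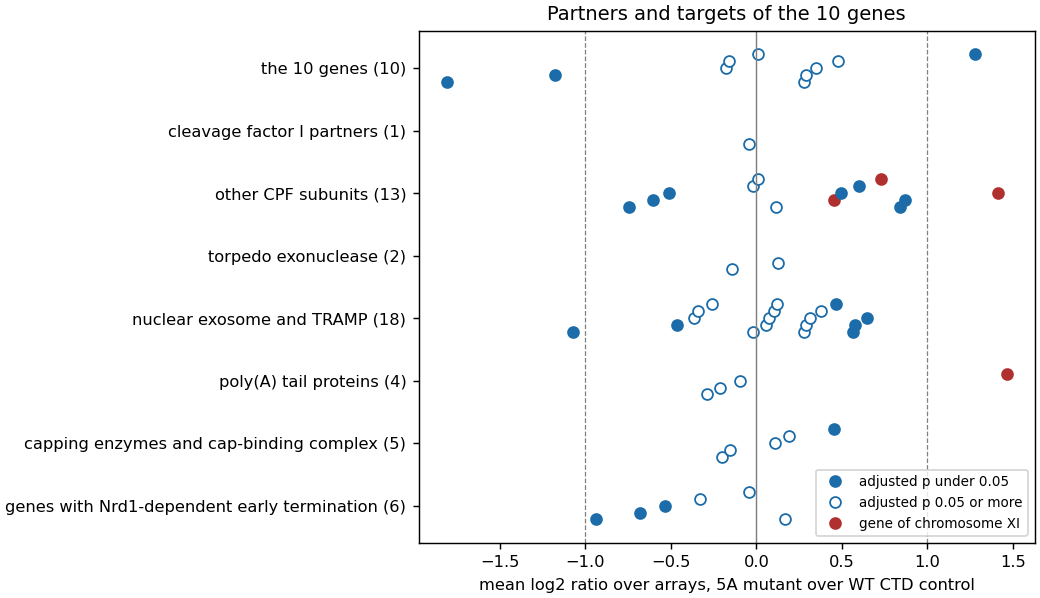
Mean log2 ratio over arrays (x axis) of each gene, by list (y axis, with the number of genes). Filled points have an adjusted p under 0.05 and dashed lines mark 2-fold. The called CPF subunits lie on both sides of 0, and the red points, genes of chromosome XI, are all above it.

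Genes whose own transcripts are known in yeast to be ended early through Nrd1 were also examined. Of 6 such genes other than NRD1, 3 were lower, none was higher and 3 were not called, so 50.0% were called. Of all probes, 40.5% were called, 20.7% as lower and 19.8% as higher. Without array 1, 3 or 4, 2 of the 6 genes were lower. IMD2, an IMP dehydrogenase gene of guanine nucleotide synthesis, gave -1.12, -1.26, -1.08 and -0.28, with a mean of -0.94 ± 0.44 (SD over 4 arrays, limma adjusted p = 0.00822). Its probe may also read the near-identical copies of the same family, so the value is uncertain. ADE12, an adenine nucleotide synthesis gene, was at -0.68 ± 0.12 and URA8, a CTP synthase gene, at -0.53 ± 0.21 (SD over 4 arrays, limma adjusted p = 0.00615 and 0.0203), and URA8 lost its call without array 1, 3 or 4. HRP1 was near 0, as given above. FKS2, a glucan synthase gene listed in RefSeq as GSC2, was at 0.17 ± 0.27 (SD over 4 arrays, limma adjusted p = 0.383). URA2, the gene of the first pyrimidine synthesis enzyme, had 3 values from -1.40 to 0.73 and a mean of -0.33 ± 1.06 (SD over 3 arrays, limma adjusted p = 0.522).

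The snoRNA genes are the best known targets of Nrd1, Nab3 and Sen1, and in yeast lacking their function polymerase is known to run on from a snoRNA gene into the gene that follows. The protein-coding genes that come next after a snoRNA gene on the same strand were examined, a list chosen with earlier results of these data known. The gene order lists 76 snoRNA genes, 33 protein-coding genes follow one of them directly, and 32 of these were tested. In the 5A mutant 25 of the 32 were higher, 3 were lower and 4 were not called. The share called as higher was 78.1%, against 19.8% of all probes, and the median log2 ratio was 0.90, against -0.01. A called ratio of 2-fold or more upward was found for 14 of the 32, against 5.64% of all probes. The rise was seen on each array alone, with medians of 0.73, 0.90, 0.93 and 0.91 on arrays 1 to 4 and between 26 and 28 of the 32 genes above 0.

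The 5 largest ratios among them were as follows. YDR042C, an uncharacterised gene after SNR47, was at 4.95, 4.37, 3.96 and 4.24 on arrays 1 to 4, with a mean of 4.38 ± 0.42 (SD over 4 arrays, limma adjusted p = 2.89e-05). NVJ2, which encodes a lipid-binding protein and follows SNR51, was at 2.56, 3.35, 3.32 and 3.20, with a mean of 3.11 ± 0.37 (SD over 4 arrays, limma adjusted p = 9.24e-05). Both were far above 0 on every array, and array 2, where RNA14 and CFT1 were closest to 0, was not the lowest for either. TRS31, a vesicle tethering gene after SNR13, was at 1.91, 2.54, 3.11 and 2.66, with a mean of 2.55 ± 0.49 (SD over 4 arrays, limma adjusted p = 0.000369). RGT1, which encodes a glucose-responsive repressor and follows SNR69, averaged 2.51 ± 0.33, and USE1, a SNARE gene after SNR82, 2.31 ± 0.21 (SD over 4 arrays, limma adjusted p = 0.000156 and 0.000136). RGT1 is a chromosome XI gene, and subtracting the median of that chromosome gave 1.63, which was called too. Leaving out any 1 array ended none of these 5 calls. The 3 lower genes were DFR1 at -0.60, CAF40 at -0.59 and OXR1 at -0.39, and none of them was called without array 1, 3 or 4.

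**Figure D5:**
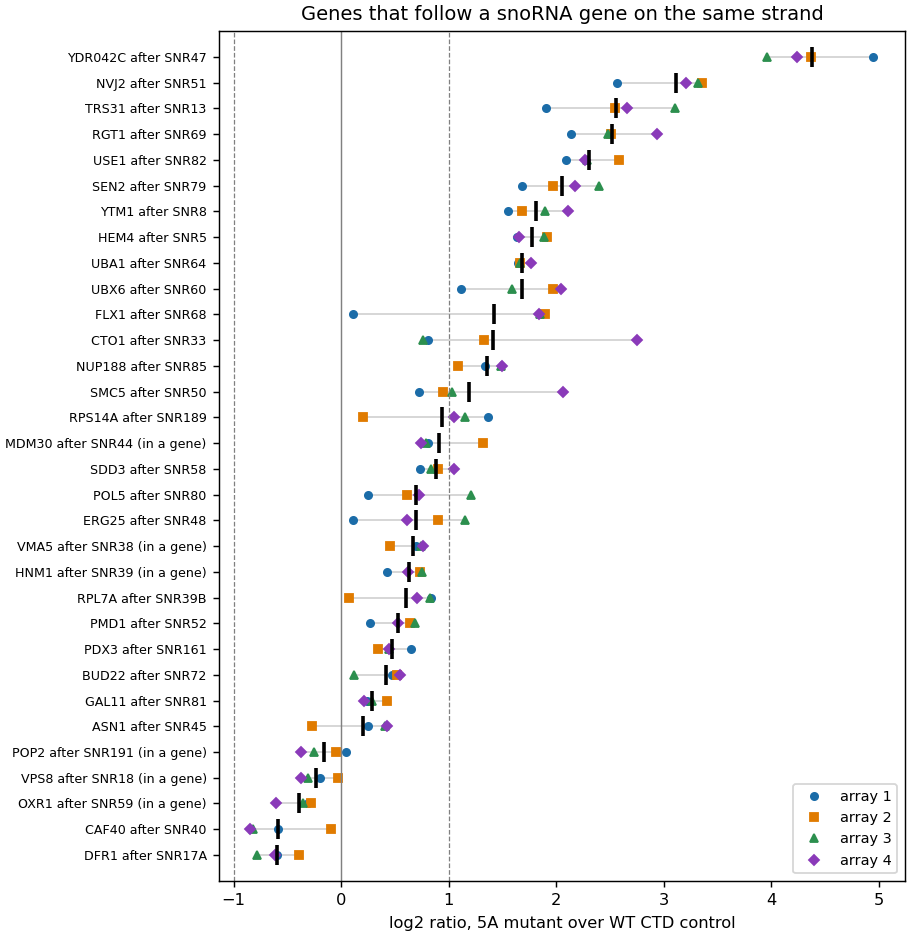
Log2 ratio of the 5A mutant over the control on each array (x axis) for the 32 tested genes that follow a snoRNA gene on the same strand, ordered by mean (black bars). Dashed lines mark 2-fold, and "in a gene" marks snoRNA genes that lie within a protein-coding gene. Most genes are above 0 on all 4 arrays, and YDR042C is the highest, at 4.38 on average.

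The followers are given next by the position of the snoRNA gene, with no test of the difference. Where it lay outside any protein-coding gene, 22 of 26 followers were higher, with a median of 1.27. Inside one, from whose intron such snoRNAs are usually cut, 3 of 6 followers were higher, with a median of 0.24 and none at 2-fold. Of these 6 followers 5 also lay more than 1000 bases away, so that position and distance cannot be told apart. Within 1000 bases 23 of 27 followers were higher, with a median of 1.19. The split by position, and the comparisons that follow, were chosen after the values had been seen. Genes that come next after a snoRNA gene on the opposite strand gave 10 higher and 2 lower of 25, with a median of 0.26. Their shares were 40.0% higher and 8.0% lower, against 19.8% and 20.7% of all probes, so higher calls were more common there too. Genes just before a snoRNA gene on its own strand gave 7 higher and 6 lower of 26 (26.9% and 23.1%), with a median of 0.23. Genes after a tRNA gene on the same strand, which another polymerase transcribes, gave 18 higher and 58 lower of 146, with a median of -0.26. These are 12.3% higher and 39.7% lower, against 19.8% and 20.7% of all probes, so this set was itself shifted downward. Genes after a protein-coding gene on the same strand were called as higher in 20.3% of 2549 cases and as lower in 19.7%, with a median of -0.01. Without the 3 followers on chromosome XI, 22 of 29 were higher, and without array 3, 17 of the 32 were higher and none was lower. A probe reads any RNA that holds its sequence, and where the RNA started was not measured. The snoRNAs themselves were not analysed here.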

How the data were processed

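Each of 4 spotted oligonucleotide arrays was hybridized with cDNA from the 5A mutant and from the control. The authors scanned the arrays with GenePix, used the BASE server for normalization and deposited a log2 ratio for each probe. The base and direction are not stated with the values. They were taken from the dyes in the labels and from the counts past 2-fold: of 5955 probes measured on all 4 arrays, 325 had a mean of 1 or more and 493 of -1 or less, which was set against the counts of genes in each direction in the paper. Background correction and spot intensities are not given in the sources used here, so detection and saturation could not be examined, and the number of arrays limits the precision.

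The 6157 probes with at least 2 values entered an intercept model in limma 3.58.1 under R 4.3.3, with moderated variances (eBayes), p-values adjusted over all of them by Benjamini-Hochberg and a threshold of 0.05. On simulated ratios for these 6157 probes, with 200 changed by a log2 ratio of 1 to 2, the fit called 81.0% of the changed probes, and 2.99% of its calls were unchanged probes. In the data 2495 probes were called, and the simulated noise was independent between probes. The simulated shares therefore do not measure the error of the calls in these data. Differences between 2 genes were tested with an exact sign-flip permutation test. Symbols and gene order came from the RefSeq table of assembly R64, in which 5708 probes matched. A follower of a snoRNA gene is the nearest gene wholly beyond it on the same strand. Python 3.11.15, numpy 2.4.6, pandas 2.3.3 and matplotlib 3.10.9 were used for the rest.

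The 10 genes and all lists were chosen with earlier results of these data known. The text names the 10 genes, every gene of the cleavage factor IB, torpedo and early termination lists, and from the other lists at most 5 called genes with the same sign on every array, by size. PAP1, PFS2, GLC7, SSU72, PTA1, RRP45, DFR1, CAF40 and OXR1 fall outside this rule and were named after their values had been seen. Alternatives were other scalings, other requirements on missing values, robust eBayes, array weights, an unmoderated test and leaving out each array. Leaving out followers of snoRNA genes within genes or on chromosome XI was added after the values were seen.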

Additional observations from a re-analysis of the deposited data

Results flagged for a closer look

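Among 39 sets of 4 array values of genes named above, 4 had 1 array far from the other 3, and chance gives about 1 in 20. The sets leave out RPO21, PAP1, PFS2, GLC7, SSU72, PTA1, RRP45, DFR1, CAF40 and OXR1, which were not examined in this way. RRP42 was at 0.19 on array 2 and between 0.68 and 0.75 on the others. REF2 was at 1.51 on array 1 against 0.55 to 0.69. RAI1 was at -0.97 on array 3 against 0.06 to 0.22, and ARG7, the neighbour of RNA14, at -0.33 on array 4 against -0.90 to -0.81. None of the 10 end processing and termination genes was among them.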

How the results depend on the processing

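Among the 10 genes the count of calls was 3, and it was 6 with array weights, in which array 2 had a weight of 0.351; with 1 array left out it ranged from 3 to 6. RNA14, CFT1 and NRD1 kept their direction in all 13 other fits, and their calls in all of them except the unmoderated test for RNA14. Leaving out 1 array moved RTT103 between -0.063 and 0.11, below 0 without array 1 or array 4. Among all probes the calls were 2495, 3388 with array weights, 914 by the unmoderated test, and 1438 to 3120 with 1 array left out. Of the 48 partner genes 21 were called, 13 relative to the 60 nearest probes, 7 by the unmoderated test and 9 to 22 with 1 array left out. Of the followers of snoRNA genes 28 were called, 17 by the unmoderated test and 17 to 28 with 1 array left out. Of the genes next to one of the 10, 5 were called, 8 with array weights, 1 by the unmoderated test and 3 to 7 with 1 array left out. The direction turned for PAP1 (-0.43 relative to its chromosome and -0.40 relative to the 60 nearest probes) and MPE1 (-0.16 relative to its chromosome and -0.25 relative to the 60 nearest probes), and with 1 array left out for HRP1 (-0.21 to 0.052, above 0 without array 1 or array 2), RAI1 (-0.26 to 0.14) and URA2 (-0.85 to 0.21). The causes were not tested. Each value is a ratio of the strains within 1 array, so the fit already compares them array by array.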
